A study of Homo sapiens with 20 samples.

Results

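The genes described here are 10 feedback genes of the ERK pathway, DUSP4, DUSP5, DUSP6, SPRY2, SPRY4, SPRED1, SPRED2, ETV4, ETV5 and PHLDA1. They are taken by gene symbol, whatever their values, and all 10 were found among 21201 gene symbols of the expression table. The study asked how tumor cells respond at the transcript level to G007-LK, a small molecule that inhibits the poly-ADP-ribosylating enzymes tankyrase 1 and tankyrase 2. Each of 5 established human tumor cell lines received either 1 µM G007-LK or its solvent DMSO at 0.01% for 24 h, and 2 biological replicates per group were sequenced from poly(A)-selected RNA, which gave 20 libraries. COLO320DM (colorectal adenocarcinoma), ABC-1 (lung), UO-31 (kidney) and OVCAR-4 (ovary) are lines whose growth the inhibitor slows, and RKO (colon carcinoma) is the insensitive control line. ABC-1 and RKO were cultured in EMEM and the others in RPMI-1640. Where levels or responses are compared between a line of the first pair and another line, medium cannot be told apart from cell line. No line carried an engineered change, and each tissue is represented by 1 line, apart from colon with 2.

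ERK is the last kinase of the cascade that runs from receptor tyrosine kinases through RAS, RAF and MEK. When it is active it switches on transcription of its own brakes, and the transcript level of these genes is widely read as a record of recent ERK output. The DUSP genes encode phosphatases that remove the activating phosphates from MAP kinases: DUSP6 acts on ERK in the cytoplasm, DUSP5 on ERK in the nucleus, and DUSP4 on nuclear MAP kinases more broadly. SPRY and SPRED proteins act further upstream, between receptor and RAF, with SPRED proteins bringing the RAS-GTPase activating protein neurofibromin to the membrane. ETV4 and ETV5 are ETS transcription factors of the PEA3 group that carry the signal on to target genes, and PHLDA1 is a pleckstrin homology-like domain protein whose transcript follows growth factor signaling.

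On GRCh37, the build that the files use, the genes with the larger responses lie apart from each other. GENCODE places ETV5 at chr3:185764103-185828107, DUSP5 at chr10:112257665-112271291, DUSP6 at chr12:89741012-89746278 and PHLDA1 at chr12:76419227-76425556. All are on the minus strand except DUSP5, and all 10 are protein coding. Promoter windows from 250 bases before to 50 bases after the gene start were present in the RefSeq table (GRCh38.p14) for 6 of the 10 genes, as 9 windows. DUSP4, DUSP5, ETV4 and ETV5 had none. The 3 windows below are examples with matches, from genes called in ABC-1 cells, where DUSP6 rose while PHLDA1 and SPRED2 fell. Capitals mark matches to the ETS core CGGAA and to the AP-1 sequence TGANTCA on either strand, and no match overlapped another.
DUSP6, chr12:89352452-89352751, minus strand: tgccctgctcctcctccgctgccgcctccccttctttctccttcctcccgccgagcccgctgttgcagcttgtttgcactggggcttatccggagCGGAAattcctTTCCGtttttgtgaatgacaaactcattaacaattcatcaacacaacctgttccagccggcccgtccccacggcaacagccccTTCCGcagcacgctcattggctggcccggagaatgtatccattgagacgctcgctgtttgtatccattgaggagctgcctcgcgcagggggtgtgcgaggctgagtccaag
PHLDA1, chr12:76031727-76032026, minus strand: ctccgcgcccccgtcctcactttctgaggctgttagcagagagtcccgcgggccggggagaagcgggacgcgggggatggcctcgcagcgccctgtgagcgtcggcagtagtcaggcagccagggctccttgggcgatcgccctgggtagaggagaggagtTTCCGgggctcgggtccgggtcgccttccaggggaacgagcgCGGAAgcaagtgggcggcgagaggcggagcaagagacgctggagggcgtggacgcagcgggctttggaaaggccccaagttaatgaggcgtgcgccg
SPRED2, second start listed, chr2:65366729-65367028, minus strand: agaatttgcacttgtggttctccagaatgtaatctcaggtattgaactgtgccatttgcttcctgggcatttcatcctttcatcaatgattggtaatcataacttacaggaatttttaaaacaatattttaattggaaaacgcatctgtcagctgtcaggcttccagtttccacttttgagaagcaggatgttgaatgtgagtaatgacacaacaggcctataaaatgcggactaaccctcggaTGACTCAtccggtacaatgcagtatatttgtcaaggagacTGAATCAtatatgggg

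The DUSP6 window held 3 ETS matches, beginning at -155, -144 and -61 from the gene start, and the PHLDA1 window held 2, at -89 and -47. Windows of other genes or starts called lower in ABC-1 are not shown. Among these, SPRED1 held 0 matches to any sequence searched and the first SPRED2 start held 1, to the ETS core. The first SPRY2 window held 2 and its others 0. A link between matches and responses was not tested. CGGAA was present in 4 of the 9 windows of these genes and in 34.9% of all 35116 promoter windows. TGANTCA was present in 1 of the 9, the SPRED2 window shown, and in 7.71% of all windows. The other sequences searched, on both strands, were the cyclic AMP response element TGACGTCA (0 of 9 windows, 1.85% of all), the TEAD sequence GGAATG (1 of 9, in SPRY4, 14% of all) and the TCF/LEF sequence CTTTGAT (0 of 9, 2.62% of all). These are matches of letters only.

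Expression was given as RPKM, reads divided by the length of the gene and by the mapped reads of the library, which allows levels to be set side by side between genes. The summed RPKM of a library ran from 367196 to 909187, with the highest sums in OVCAR-4. The number of reads is unknown, but within a line the libraries held 0.855 to 1.11 times the reads of the first DMSO library. Whole libraries were shifted against each other: as deposited, the median gene of the second UO-31 G007-LK library lay 0.285 log2 units below that of the first, and the second COLO320DM DMSO library lay 0.168 above the first. For that reason libraries of a line were rescaled by the median ratio before each response was fitted. As deposited, the median gene fell by 0.14 in ABC-1 and by 0.11 in OVCAR-4 on the log2 scale, and every response below is relative to that shift. Colon markers other than CDX2 were near 0 in both colon lines (CDX2 747 RPKM in COLO320DM and 7.15 in RKO). The lung markers NAPSA and SFTPB were near 0 in ABC-1 (0.185 and 0.0512 RPKM). PAX8, used as a marker of both kidney and ovary, was at 65 RPKM in UO-31 and 81.3 in OVCAR-4, so it does not tell them apart. HAVCR1 was at 35 and PAX2 at 6.51 RPKM in UO-31. SOX17 was at 194 RPKM in OVCAR-4, where WT1 was near 0 (0.0953 RPKM). The colon marker VIL1 was higher in OVCAR-4 (3.63 RPKM with DMSO) than in COLO320DM (0.0361) or RKO (0.0259). The summed RPKM of 6 blood and endothelial markers lay between 0.0142 and 4.68 in every library, with at least 1 of the 6 at 0. With G007-LK it was higher in ABC-1 (0.697 to 0.882 against 0.291 to 0.386 with DMSO) and COLO320DM (4.43 to 4.68 against 3.21 to 4.19) and lower in OVCAR-4 (2.22 to 2.85 against 2.95 to 2.99), and its part in the results was not tested. In bulk RNA, fewer cells of a type and less RNA per cell cannot be told apart.

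Without inhibitor, RKO held the highest DMSO level of 8 of the 10 genes, and the exceptions were DUSP4 and SPRY2, both highest in ABC-1. Of all 14101 genes compared, 8.67% were highest in RKO as deposited and 17.5% after rescaling, and 10% and 19.7% were highest in ABC-1. The lead of RKO ran from SPRED2, at 23.9 and 25.1 RPKM against 17.9 and 19.4 in ABC-1, to SPRY4. PHLDA1 reached 104 and 103 RPKM in the RKO DMSO libraries, SPRY4 97.7 and 95.8, and DUSP6 74.9 and 75.4. These levels exceeded those of 96.2%, 95.9% and 94.5% of the symbols detected in RKO. The median of the 10 genes was 27.2 RPKM in RKO, 6.02 in UO-31, 4.37 in ABC-1, 2.19 in OVCAR-4 and 1.72 in COLO320DM. Between lines almost every gene differs: 99.1% of 14101 genes passed the moderated F test of limma over the 10 DMSO libraries at an adjusted p of 0.05, so a difference between lines is not a property of these genes. The share that differed between a pair of lines was 79.3% for COLO320DM and RKO, 80.4% for ABC-1 and RKO, 81.4% for UO-31 and RKO, and 84.6% for OVCAR-4 and RKO. It was 82.1%, 85.0% and 86.1% for COLO320DM with ABC-1, UO-31 and OVCAR-4, 83.5% and 83.1% for ABC-1 with UO-31 and OVCAR-4, and 83.2% for UO-31 with OVCAR-4.

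SPRY4, a RAS-ERK antagonist of the Sprouty family, had the widest range. Its DMSO libraries read 97.7 and 95.8 RPKM in RKO, and far less elsewhere: OVCAR-4 had 5.69 and 5.66, UO-31 had 1.56 and 1.39, ABC-1 had 0.232 and 0.257, and COLO320DM had 0.13 and 0.224. The mean in RKO was 546-fold that in COLO320DM. The lines did not overlap, but COLO320DM and ABC-1 came close and did not differ by the test (log2 difference 0.16, SE 0.07, adjusted p = 0.0641). The step from OVCAR-4 to RKO was the largest (4.89 on the log2 scale after rescaling, SE 0.07, adjusted p = 1.7e-12).

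DUSP6 formed 3 tiers. OVCAR-4 read 0.979 and 0.976 RPKM, COLO320DM 1.06 and 0.982 and ABC-1 1.45 and 1.17, then UO-31 14.6 and 14.3, then RKO 74.9 and 75.4. DUSP5 rose from 2.34 and 2.26 RPKM in COLO320DM through 3.84 and 3.64 in UO-31, 5.42 and 5.56 in ABC-1 and 10.3 and 11.5 in OVCAR-4 to 36.4 and 37.6 in RKO, and after rescaling ABC-1 and OVCAR-4 did not differ (0.03, 95% interval -0.14 to 0.19, adjusted p = 0.759). As deposited, OVCAR-4 lay above ABC-1 in DUSP5 (0.93, limma adjusted p = 5.7e-07). With all 20 libraries the difference was 0.56 (limma adjusted p = 0.0044). That fit includes the treated libraries, and DUSP5 changed with G007-LK by -0.88 in ABC-1 and by 0.21 in OVCAR-4. DUSP4 had another order: it was highest in ABC-1 (2.6 and 3.04 RPKM) and UO-31 (1.79 and 1.74), low in OVCAR-4 (0.284 and 0.444) and RKO (0.245 and 0.294), and hardly detected in COLO320DM (0.0159 and 0.0124).

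SPRY2, the other Sprouty gene, was close to level across 3 lines, where ABC-1 had 14.1 and 16.2 RPKM, UO-31 had 12.5 and 12 and RKO had 12 and 11.2. It was lower in OVCAR-4 (7.33 and 7.82) and nearly absent in COLO320DM (0.112 and 0.075). UO-31 and RKO did not differ (0.08, 95% interval -0.07 to 0.23, adjusted p = 0.285), although RKO was higher after quantile normalization (0.22, adjusted p = 0.0139) and with equal sums of RPKM (0.21, adjusted p = 0.0325). COLO320DM thus had low levels of both Sprouty genes, while its SPRED2 level was 10.7 and 14.7 RPKM.

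The SPRED genes varied least. SPRED1 means ran from 1.8 RPKM in OVCAR-4 to 8.34 in RKO, a 4.63-fold range, and SPRED2 means from 7.32 in UO-31 to 24.5 in RKO, a 3.35-fold range. Neither COLO320DM and UO-31 nor UO-31 and ABC-1 differed in SPRED1 (adjusted p = 0.268 and 0.0556), and OVCAR-4 and UO-31 did not differ in SPRED2 (0.15, 95% interval -0.03 to 0.33, adjusted p = 0.102).

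ETV4 was at 29.7 and 30.4 RPKM in RKO and at 11.2 and 12.1 in ABC-1, with 4.65 and 4.77 in UO-31, 3.12 and 3.2 in COLO320DM and 2.45 and 2.72 in OVCAR-4. ETV5, its close relative, had another order below RKO (23.9 and 24.2 RPKM): COLO320DM (10.7 and 12.6) and UO-31 (11.1 and 10.7) came next, followed by ABC-1 (2.55 and 2.89) and OVCAR-4 (1.43 and 1.8). The 2 PEA3 factors thus changed places between COLO320DM and ABC-1. PHLDA1 was at 34.8 and 38.5 RPKM in ABC-1 and 25.7 and 26.8 in UO-31, against 1.07 and 1.2 in COLO320DM and 1.88 and 1.72 in OVCAR-4. The lead of RKO over the next line kept its call for all 8 genes under every alternative run. Of the smaller steps between neighbours, RKO over OVCAR-4 in DUSP4 (0.19, adjusted p = 0.0408), ABC-1 over COLO320DM in DUSP6 (0.27, adjusted p = 0.0287), COLO320DM over UO-31 in ETV5 (0.19, adjusted p = 0.0274) and COLO320DM over OVCAR-4 in PHLDA1 (0.19, adjusted p = 0.00787) passed with all libraries and missed when some single library was left out, with adjusted p up to 0.271, 0.263, 0.106 and 0.0668. Conversely, ABC-1 over COLO320DM in SPRY4 passed without the second COLO320DM DMSO library (0.24, adjusted p = 0.0123), UO-31 over OVCAR-4 in SPRED2 without either COLO320DM DMSO library (0.15, adjusted p = 0.0187 and 0.019) and ABC-1 over UO-31 in SPRED1 without either of those (0.20, adjusted p = 0.0358 and 0.036), without the first ABC-1 DMSO library (0.27, adjusted p = 0.0335) or without the second UO-31 DMSO library (0.27, adjusted p = 0.0415). Every other step between neighbours that is not named above as missing the threshold passed it. Places near OVCAR-4 depended on scaling, because rescaling over all 20 libraries divided its values by 1.59 to 1.76 and those of the other lines by 0.767 to 1.05.

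**Figure D1:**
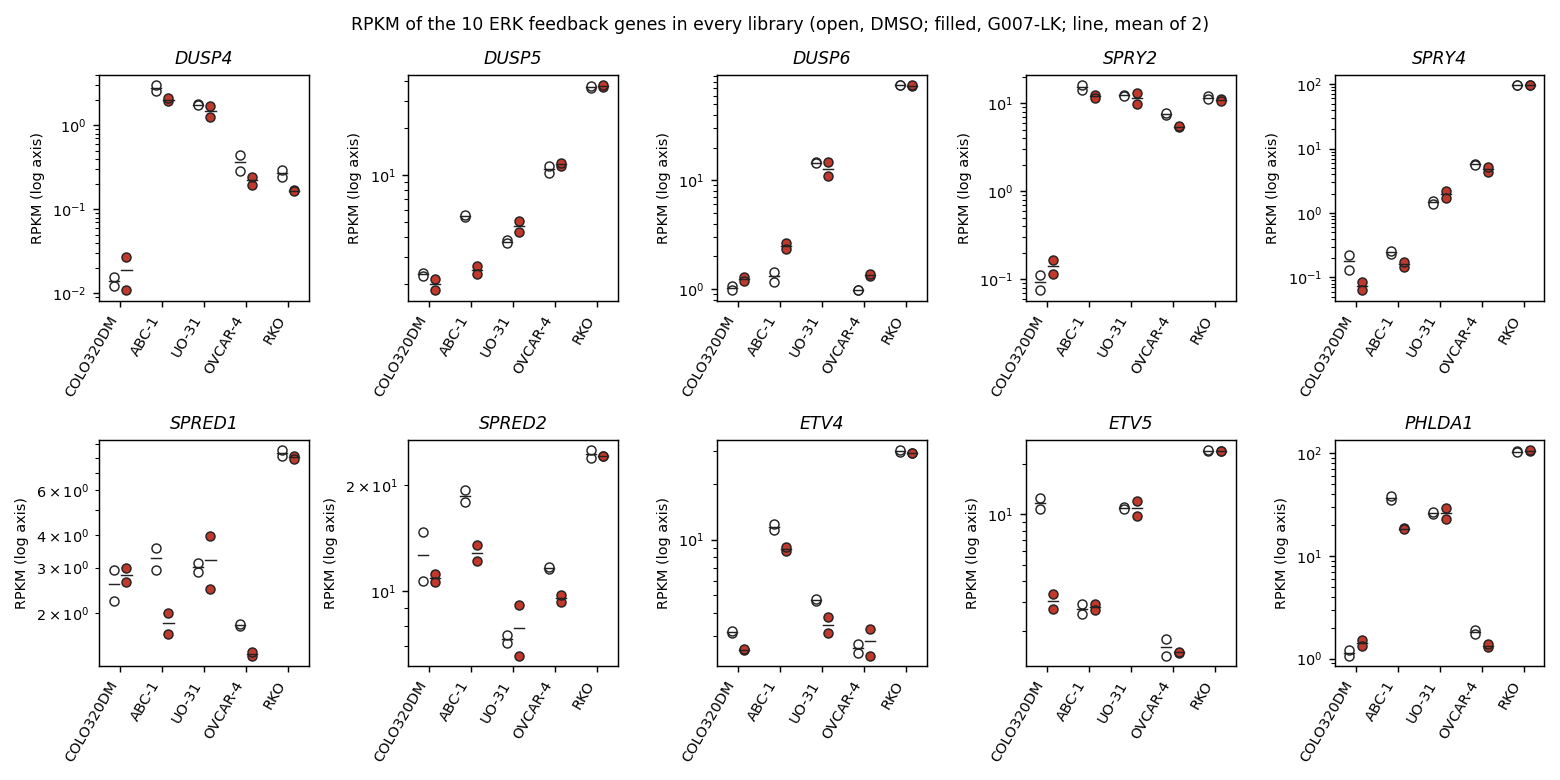
RPKM (log axis, a different range in each panel) of the 10 genes in each of the 20 libraries, by cell line, with DMSO libraries as open points, G007-LK libraries as filled points and the mean of 2 as a line. RKO points lie at the top in 8 panels and its open and filled points nearly coincide, while ETV5 drops in COLO320DM and DUSP5, SPRED1, SPRED2 and PHLDA1 drop and DUSP6 climbs in ABC-1.

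The level patterns of the genes were partly shared. Over the 20 libraries, DUSP5 and SPRY4 were the most alike pair (Pearson r = 0.966 on log2 values), followed by ETV4 and PHLDA1 (r = 0.867), while DUSP4 was the least like SPRY4 (r = -0.341). Of all 14199 genes compared, the one most like DUSP6 was DGKG (r = 0.985), followed by IL7 (0.985) and HIC1 (0.982). The closest to the others were TRIM8 for DUSP4 (0.982), DLL1 for DUSP5 (0.987), PRTFDC1 for SPRY2 (0.992), LINC00460 for SPRY4 (0.992), EXTL2 for SPRED1 (0.956), NELFB for SPRED2 (0.964), TMEM194B for ETV4 (0.959), PMP22 for ETV5 (0.946) and EIF3H for PHLDA1 (0.979). These are descriptions over libraries that fall into 5 lines of 4, so they mostly follow the 5 line levels.

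The response to G007-LK differed by line in size and direction, and the genes did not move as a block. In ABC-1, 8 of the 9 genes tested passed the threshold (adjusted p under 0.05), 7 lower and 1 higher, where 63.8% of all 10910 genes passed, 32.4% lower and 31.4% higher. In OVCAR-4, 4 of 9 passed, 2 in each direction, against 47.0% of 12425 genes (24.1% higher and 23.0% lower). In UO-31, 2 of 10 passed, 1 in each direction, against 30.1% of 11851 genes (14.6% higher and 15.5% lower). In COLO320DM, 1 of 7 passed and it was lower, against 38.6% of 11279 genes (18.4% higher and 20.2% lower). In RKO, 0 of 9 passed, against 2.71% of 10518 genes (1.65% higher and 1.06% lower), and only PHLDA1 had an unadjusted p under 0.05 in limma (1 of 9). The shares in OVCAR-4, UO-31, COLO320DM and RKO were thus close to or below those of all genes. A mean RPKM below 1 kept 6 gene-by-line values out of the tests: DUSP4 in COLO320DM, OVCAR-4 and RKO, SPRY2 in COLO320DM, and SPRY4 in COLO320DM and ABC-1. The median log2 change of the genes tested was -0.27 in ABC-1, -0.16 in COLO320DM, -0.12 in OVCAR-4, 0.03 in UO-31 and 0.00 in RKO, where that of all genes tested was 0.00 in each line. Without rescaling, the calls over all genes leaned to lower values: 1816 higher and 4498 lower in ABC-1 (3422 and 3534 after rescaling), 1564 and 4841 in OVCAR-4 (2989 and 2856), 568 and 1023 in UO-31 (1727 and 1837) and 143 and 289 in RKO (174 and 111). Overlap of treated and control libraries is given below only as a description, on the deposited scale. Its share over all genes was not counted. Groups of 2 also separated in RKO, where none was called, for DUSP6, SPRY2, SPRED1, ETV4 and PHLDA1.

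ETV5 in COLO320DM had the largest change of any of these genes. It read 10.7 and 12.6 RPKM with DMSO and 3.32 and 2.72 with G007-LK, so both treated libraries lay far below both controls. The fall was 3.42-fold (log2 change -1.77, SE 0.09, limma adjusted p = 3.8e-06) and was the 25th in absolute size of 11279 genes in that line. It passed under each of 14 alternatives, with values from -1.90 to -1.64. In the other lines ETV5 was not called: it read 2.55 and 2.89 then 2.91 and 2.67 RPKM in ABC-1, 11.1 and 10.7 then 12 and 9.76 in UO-31, 1.43 and 1.8 then 1.48 and 1.51 in OVCAR-4, and 23.9 and 24.2 then 24 and 24 in RKO. The G007-LK and DMSO values overlapped in those 4 lines.

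ETV4 fell in ABC-1 from 11.2 and 12.1 to 8.72 and 9.06 RPKM (log2 change -0.23, SE 0.07, adjusted p = 0.01), a call that was lost without the first G007-LK library (-0.17, adjusted p = 0.129). In UO-31 it fell from 4.65 and 4.77 to 3.82 and 3.11 RPKM (-0.36, SE 0.10, adjusted p = 0.0293). That call was lost without either DMSO library (-0.39, adjusted p = 0.203, without the first, and -0.33, adjusted p = 0.323, without the second) and on the deposited scale (-0.40, adjusted p = 0.259). In COLO320DM the values were 3.12 and 3.2 with DMSO and 2.52 and 2.56 with G007-LK. These do not overlap, but the change missed the threshold (-0.25, 95% interval -0.47 to -0.03, adjusted p = 0.0665) and passed without the second DMSO library (-0.32, adjusted p = 0.0297). In OVCAR-4 it read 2.45 and 2.72 then 2.36 and 3.28 RPKM, and the change of 0.19 passed only without the first G007-LK library (0.38, adjusted p = 0.0474).

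Among the phosphatases, DUSP5 and DUSP6 moved in opposite directions in ABC-1. DUSP5 read 5.42 and 5.56 RPKM with DMSO and 2.61 and 2.32 with G007-LK, and DUSP6 read 1.45 and 1.17 with DMSO and 2.65 and 2.36 with G007-LK. Treated and control libraries did not overlap for either gene. DUSP5 fell by 0.88 on the log2 scale (SE 0.08, adjusted p = 6.1e-07) and DUSP6 rose by 0.85 (SE 0.11, adjusted p = 1.6e-05). Both passed under each of 13 alternatives, DUSP5 with values from -1.02 to -0.79 and DUSP6 from 0.69 to 1.03. DUSP4, the third phosphatase, fell from 2.6 and 3.04 to 1.94 and 2.09 RPKM (-0.27, SE 0.10, adjusted p = 0.0243). This last call was lost without the second DMSO library (-0.23, adjusted p = 0.113) or without the first G007-LK library (-0.20, adjusted p = 0.179).

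In OVCAR-4 both DUSP5 and DUSP6 were higher with the inhibitor. DUSP6 read 0.979 and 0.976 RPKM with DMSO and 1.32 and 1.37 with G007-LK, without overlap (0.40, SE 0.14, adjusted p = 0.0418). Its DMSO mean of 0.977 RPKM lay below the minimum of 1, so DUSP6 entered the test only through its G007-LK libraries. Without a filter it missed the threshold (0.39, limma adjusted p = 0.0522). DUSP5 read 10.3 and 11.5 then 11.5 and 11.9 RPKM, so the ranges met (0.21, SE 0.06, adjusted p = 0.0217). Neither call was firm. DUSP6 passed in no fit that left out 1 library (0.38 to 0.41, adjusted p = 0.114 to 0.145) nor as deposited (0.32, adjusted p = 0.0904), and DUSP5 did not pass without the first DMSO library (0.15, adjusted p = 0.148), without the second G007-LK library (0.19, adjusted p = 0.075) or as deposited (0.10, adjusted p = 0.259). DUSP5 was also higher in UO-31, from 3.84 and 3.64 to 5.09 and 4.29 RPKM (0.33, SE 0.10, adjusted p = 0.0394). It lost that call as deposited (0.29, adjusted p = 0.468) and without the first DMSO library (0.35, adjusted p = 0.276) or the second (0.31, adjusted p = 0.354).

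The remaining phosphatase values did not pass. DUSP6 in UO-31 read 14.6 and 14.3 RPKM with DMSO and 14.7 and 10.9 with G007-LK (-0.14, 95% interval -0.32 to 0.05), and passed without the first G007-LK library (-0.18, adjusted p = 0.0249). In COLO320DM it read 1.06 and 0.982 then 1.3 and 1.19 RPKM (0.21, 95% interval -0.05 to 0.47). In RKO it stood at 74.9 and 75.4 then 73 and 74.8 RPKM, with an interval of -0.05 to 0.05 on the log2 scale. DUSP5 in RKO read 36.4 and 37.6 then 36.9 and 38 RPKM (0.04, 95% interval -0.03 to 0.11). For each gene tested in RKO, its interval there was the narrowest among the lines in which that gene was tested.

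Of the Sprouty genes, SPRY2 fell in OVCAR-4 and ABC-1 and SPRY4 passed in no line tested. SPRY2 in OVCAR-4 fell from 7.33 and 7.82 to 5.34 and 5.45 RPKM (-0.35, SE 0.07, adjusted p = 0.00347), without overlap and under each of 13 alternatives (-0.45 to -0.32). In ABC-1 it read 14.1 and 16.2 then 12.5 and 11.5 RPKM (-0.17, SE 0.07, adjusted p = 0.0355). That call was lost in 6 of 14 alternatives, among them leaving out the second DMSO library (-0.13, adjusted p = 0.19), the first G007-LK library (-0.19, adjusted p = 0.0758) or the second (-0.14, adjusted p = 0.191). SPRY4 in UO-31 read 1.56 and 1.39 RPKM with DMSO and 2.21 and 1.7 with G007-LK (0.34, 95% interval 0.07 to 0.62, adjusted p = 0.0646), and it passed without the second G007-LK library (0.36, adjusted p = 0.0404). In ABC-1, where it was too low to test, it read 0.232 and 0.257 then 0.147 and 0.173 RPKM, and in COLO320DM 0.13 and 0.224 then 0.0846 and 0.0629 RPKM. In RKO, SPRY4 read 97.7 and 95.8 then 97.9 and 97.4 RPKM.

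Both SPRED genes fell in ABC-1. SPRED1 went from 2.93 and 3.58 to 2 and 1.66 RPKM (-0.56, SE 0.10, adjusted p = 2.3e-04) and SPRED2 from 17.9 and 19.4 to 13.5 and 12.2 RPKM (-0.37, SE 0.06, adjusted p = 1.3e-04). Neither overlapped, and both passed under every alternative run. SPRED2 was also lower in OVCAR-4, at 11.6 and 11.7 then 9.32 and 9.79 RPKM (-0.17, SE 0.06, adjusted p = 0.0421), but passed in none of the 4 fits that left out 1 library (-0.19 to -0.15, adjusted p = 0.0688 to 0.15). SPRED2 in COLO320DM read 10.7 and 14.7 then 11.2 and 10.6 RPKM. The change of -0.18 there passed without the first DMSO library (-0.31, adjusted p = 0.0037). SPRED1 in UO-31 had the least alike replicates of all 86 pairs with at least 1 RPKM, 3.98 and 2.47 RPKM with G007-LK, a ratio of 1.61 where the median pair differed 1.07-fold.

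PHLDA1 fell in ABC-1 from 34.8 and 38.5 to 18.5 and 18.2 RPKM (-0.83, SE 0.06, adjusted p = 2.4e-08). The groups did not overlap, and the call held under each of 14 alternatives (-0.98 to -0.77). It was the highest of the 10 genes in ABC-1 before treatment. Elsewhere PHLDA1 was not called: it read 1.07 and 1.2 then 1.52 and 1.34 RPKM in COLO320DM (0.25, 95% interval 0.01 to 0.49, adjusted p = 0.0907), 1.88 and 1.72 then 1.29 and 1.38 in OVCAR-4 (-0.24, 95% interval -0.53 to 0.05, adjusted p = 0.16), 25.7 and 26.8 then 29 and 23.1 in UO-31, and 104 and 103 then 105 and 107 in RKO. The COLO320DM and OVCAR-4 values separated treated from control libraries in opposite directions.

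**Figure D2:**
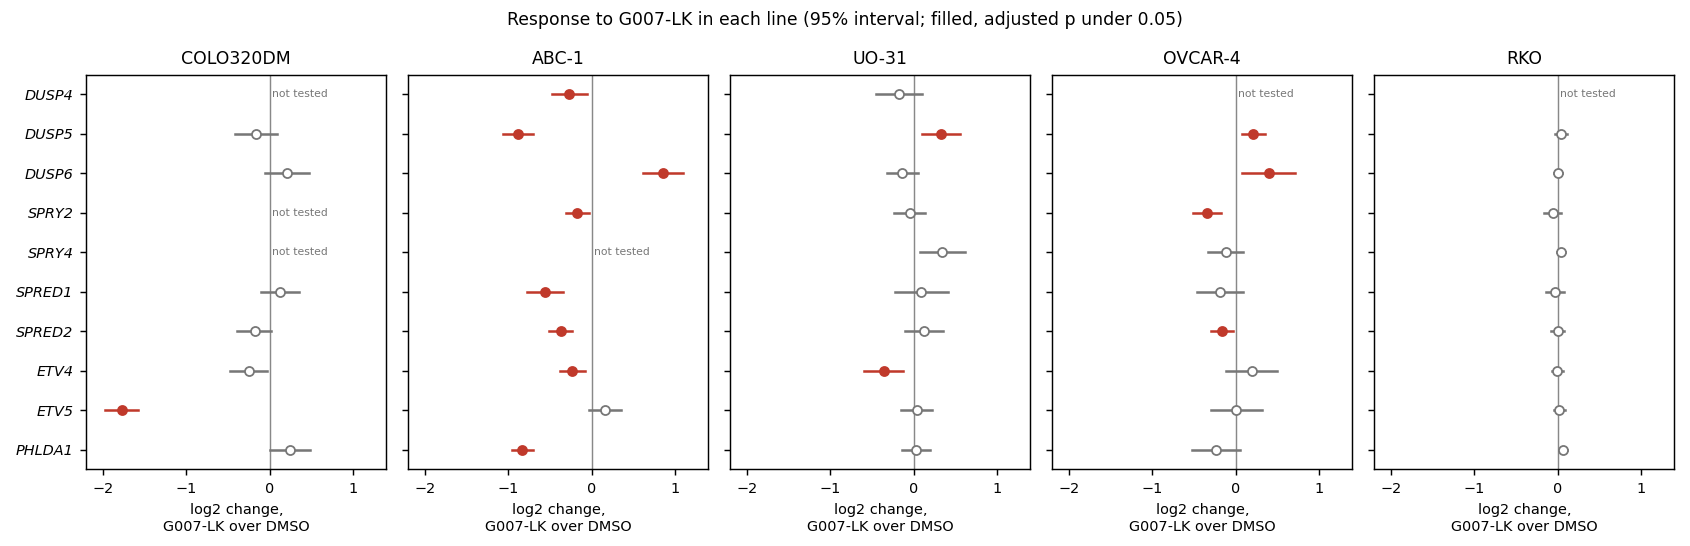
Log2 change (G007-LK over DMSO, on log2(RPKM + 0.5) after rescaling within the line) of each gene in each line, with 95% intervals from limma and filled points for an adjusted p under 0.05. ETV5 stands at -1.77 in COLO320DM, ABC-1 shows 7 filled points below 0 and DUSP6 above it at 0.85, and all 9 RKO points lie between -0.06 and 0.06.

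To ask whether a response exceeded that of the insensitive line, the change in each line was tested against the change in RKO. In ABC-1, 6 of 8 genes differed from RKO, 5 below and 1 above, where 53.1% of 9522 genes differed (28.5% below and 24.5% above). DUSP5 differed by -0.91 (SE 0.07, adjusted p = 2.3e-06), PHLDA1 by -0.86 (SE 0.05, adjusted p = 3.4e-07), SPRED1 by -0.51 (SE 0.11, adjusted p = 0.00199), SPRED2 by -0.36 (SE 0.07, adjusted p = 8.2e-04) and DUSP6 by 0.86 (SE 0.11, adjusted p = 7.5e-05), and these 5 kept the call under every alternative run. ETV4 differed by -0.21 (SE 0.07, adjusted p = 0.0265), but was lost when the first ABC-1 G007-LK library was left out (-0.14, adjusted p = 0.0794), or when any 1 of the 4 RKO libraries was (-0.22 to -0.19, adjusted p = 0.0611 to 0.0944). In COLO320DM, 1 of 7 genes differed, ETV5 by -1.79 (SE 0.08, adjusted p = 4.2e-06), where 29.0% of 9766 genes differed (16.2% below and 12.9% above).

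In OVCAR-4, 3 of 9 differed, against 29.5% of 10063 genes (14.9% above and 14.6% below). These were DUSP6 by 0.41 (SE 0.06, adjusted p = 9.2e-04), PHLDA1 by -0.29 (SE 0.07, adjusted p = 0.0107) and SPRY2 by -0.27 (SE 0.08, adjusted p = 0.0226). The DUSP6 difference kept its call in each of 15 alternatives, but its SE rests on a spread shared with RKO. With a DMSO mean of 0.977 RPKM in OVCAR-4, DUSP6 reached the minimum of 1 there only through its G007-LK libraries. In OVCAR-4 alone the SE of the response was 0.14 for DUSP6, whose call was not firm. It was 0.13 for PHLDA1, which was not called there. PHLDA1 was lost without the second RKO G007-LK library (-0.27, adjusted p = 0.0514), and SPRY2 without the second OVCAR-4 DMSO library (-0.24, adjusted p = 0.0706), the second RKO DMSO library (-0.22, adjusted p = 0.0958) or the first RKO G007-LK library (-0.24, adjusted p = 0.0941). In UO-31, 3 of 9 differed, against 20.5% of 9947 genes (7.93% above and 12.6% below). These were SPRY4 by 0.33 (SE 0.08, adjusted p = 0.0191), DUSP5 by 0.31 (SE 0.08, adjusted p = 0.0214) and ETV4 by -0.33 (SE 0.08, adjusted p = 0.0179). All 3 were lost as deposited (adjusted p = 0.403, 0.414 and 0.255), without the second UO-31 DMSO library (adjusted p = 0.0785, 0.0842 and 0.0778) and without any 1 RKO library (adjusted p = 0.076 to 0.112). DUSP5 was also lost without the first UO-31 DMSO library (0.33, adjusted p = 0.06). Leaving out 1 library also added differences. In COLO320DM these were DUSP6 (0.31, adjusted p = 0.00405), SPRED2 (-0.31, adjusted p = 0.00393) and PHLDA1 (0.21, adjusted p = 0.0301) without the first DMSO library, and DUSP5 (-0.30, adjusted p = 0.0113), ETV4 (-0.31, adjusted p = 0.00706) and PHLDA1 (0.19, adjusted p = 0.0378) without the second, as well as PHLDA1 without the second G007-LK library (0.23, adjusted p = 0.047). In OVCAR-4 they were DUSP5 without the second DMSO library (0.23, adjusted p = 0.022), ETV4 without the first G007-LK library (0.40, adjusted p = 0.00328) and SPRY4 without the second (-0.26, adjusted p = 0.00531). In UO-31 they were DUSP6 without the first G007-LK library (-0.16, adjusted p = 0.0172), and SPRED1 (0.31, adjusted p = 0.0243) and SPRED2 (0.22, adjusted p = 0.0271) without the second. All 4 lines were compared with the same RKO libraries, and only ABC-1 shared the medium of RKO. Differences between pairs of sensitive lines were not tested.

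**Figure D3:**
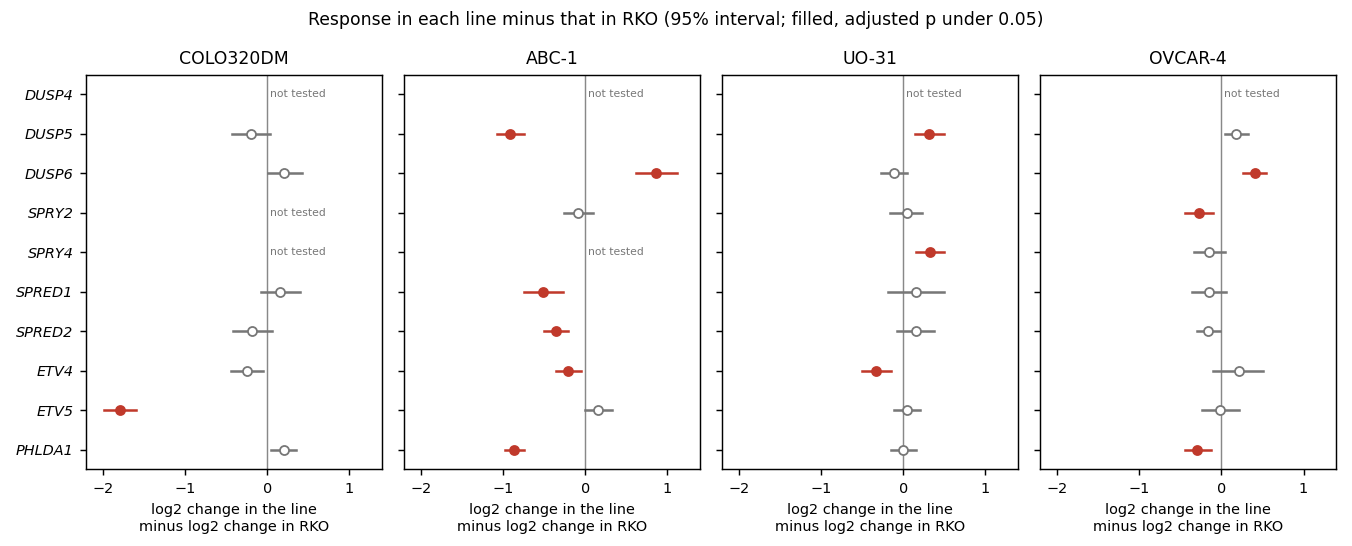
Log2 change in each of the 4 sensitive lines minus the log2 change in RKO, with 95% intervals from limma and filled points for an adjusted p under 0.05. The 6 filled points of ABC-1 spread from -0.91 to 0.86, ETV5 lies at -1.79 in COLO320DM, and the filled points of UO-31 and OVCAR-4 lie between -0.33 and 0.41.

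Close relatives of these genes moved in both directions. Of 13 other family members, 8 were tested in ABC-1 and 4 fell and 1 rose, a share of 62.5% where 63.8% of all genes passed. For all lists below, the shares of all genes that passed were 63.8% in ABC-1, 47.0% in OVCAR-4, 38.6% in COLO320DM, 30.1% in UO-31 and 2.71% in RKO. As deposited, the related lists lost 10 of 25 calls in COLO320DM, 7 of 34 in OVCAR-4, 7 of 15 in UO-31 and 3 of 27 in ABC-1, while RKO lost 0 of 4. DUSP2 (log2 change -1.05, SE 0.10, adjusted p = 6.0e-07) and DUSP1 (-0.90, SE 0.06, adjusted p = 2.3e-08), both nuclear MAP kinase phosphatases, fell in ABC-1 with DUSP7 (-0.91) and PHLDA2 (-0.86). In COLO320DM, 3 of 8 rose and 4 fell (87.5%), led by PHLDA2 (-0.54, SE 0.14, adjusted p = 0.0141) and DUSP8 (0.46, SE 0.11, adjusted p = 0.0131). PHLDA2 was at 1.35 RPKM there with DMSO and 0.747 with G007-LK, and DUSP8 at 0.836 and 1.31. Both thus reached the minimum mean of 1 RPKM only through the group where they were higher. In OVCAR-4, 6 of 10 rose and 2 fell (80.0%), DUSP8 (0.35, lost as deposited, adjusted p = 0.054) and DUSP2 (0.31) up and SPRY1 (-0.34) and DUSP7 (-0.33) down. In UO-31, 2 of 9 rose and 1 fell (33.3%), with ETV1, the third PEA3 factor, at 0.50 (SE 0.11, adjusted p = 0.0142). All 3 of these UO-31 calls were lost as deposited, ETV1 with an adjusted p of 0.152. In RKO, 2 of 10 rose (20%), DUSP2 (0.20) and PHLDA2 (0.19).

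Other genes that ERK signaling switches on were also mixed. Of 12 such genes, 10 were tested in ABC-1, where 4 rose and 4 fell (80.0%). The receptor gene EPHA4 rose by 1.17 (SE 0.10, adjusted p = 1.4e-07), while its relative EPHA2 fell by 1.14 (SE 0.07, adjusted p = 3.7e-09) and the immediate early factor EGR1 fell by 0.66 (SE 0.06, adjusted p = 5.3e-07). In COLO320DM, 1 of 7 rose (EPHA4, 0.58) and 5 fell (85.7% in all), with SPHK1, which makes sphingosine-1-phosphate, at -0.69 (SE 0.15, adjusted p = 0.00758). SPHK1 was at 1.4 RPKM there with DMSO and 0.668 with G007-LK, so it reached the minimum of 1 only through its DMSO libraries. In UO-31, 0 of 10 rose and 4 fell (40.0%), led by the AP-1 subunit FOSL1 (-0.62, SE 0.08, adjusted p = 0.00154) and MAFF (-0.50, lost as deposited, adjusted p = 0.0575). In OVCAR-4, 4 of 12 rose and 4 fell (66.7%), with the cyclin gene CCND1 at -0.78 (SE 0.03, adjusted p = 1.4e-07), FOSL1 at -0.65 (SE 0.05, adjusted p = 6.1e-06) and SPHK1 at 0.77 (SE 0.04, adjusted p = 1.1e-06). In RKO, 2 of 11 rose (18.2%), IER3 (0.27) and SPHK1 (0.13). Within this mixed list, CCND1 and EPHA2 were called lower in each of the 4 sensitive lines and were not called in RKO. They are named because of these calls, and the share of all genes called lower in all 4 lines was not counted. CCND1 changed by -0.49 in COLO320DM, -0.65 in ABC-1 and -0.34 in UO-31. EPHA2 changed by -0.25 in COLO320DM (lost as deposited, limma adjusted p = 0.172), -0.35 in UO-31 and -0.52 in OVCAR-4.

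Of 20 core genes of the cascade, from RAS adaptors to ERK, 6 of the 18 tested fell and 1 rose in ABC-1 (38.9%), with PTPN11, the phosphatase SHP2, at -0.48 (SE 0.07, adjusted p = 2.3e-05), HRAS at -0.35 and the exchange factor SOS1 at 0.33 (lost as deposited, adjusted p = 0.138). In OVCAR-4, 7 of 20 fell and 3 rose (50%), with MAPK3, which encodes ERK1, at 0.34 (SE 0.04, adjusted p = 5.3e-05), PTPN11 at -0.34 and NF1, which encodes neurofibromin, at -0.32. In COLO320DM, 5 of 20 rose and 3 fell (40.0%), led by BRAF at 0.54 (SE 0.11, adjusted p = 0.00573), KSR1 at 0.49 and SOS2 at 0.45. The last pair was lost as deposited (adjusted p = 0.0565 and 0.0561). In UO-31, 2 of 20 fell, HRAS (-0.57, SE 0.12, adjusted p = 0.0112) and MAP2K1, which encodes MEK1 (-0.51, SE 0.07, adjusted p = 0.00243), and MAPK3 rose by 0.28 (lost as deposited, adjusted p = 0.365), 15% in all. In RKO, 0 of 18 passed in limma.

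The list of 13 receptor tyrosine kinase genes included 2 changes past 1 log2 unit. MET, the receptor for hepatocyte growth factor, changed by -1.17 in ABC-1 (SE 0.06, adjusted p = 1.1e-09), by -0.48 in COLO320DM, by -0.47 in UO-31 and by -0.12 in OVCAR-4 (adjusted p = 0.0349), a fall in each, and stood at 0.11 in RKO (adjusted p = 0.129). How many of all genes were called lower in all 4 sensitive lines was not counted. ABC-1 also had lower FGFR4 (-0.90) and FGFR2 (-0.60) and higher ERBB3 (0.61), and 3 of its 9 tested receptors rose and 4 fell (77.8%). EGFR fell by 1.08 in OVCAR-4 (SE 0.06, adjusted p = 1.5e-06), where 3 of 11 rose and 5 fell (72.7%). FGFR3 rose in COLO320DM (0.64, SE 0.09, adjusted p = 0.001), where 1 of 9 rose and 3 fell (44.4%). In UO-31, 2 of 10 rose and 3 fell (50%), led by FGFR1 (-0.61), and in RKO 0 of 10 passed in limma.

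**Figure D4:**
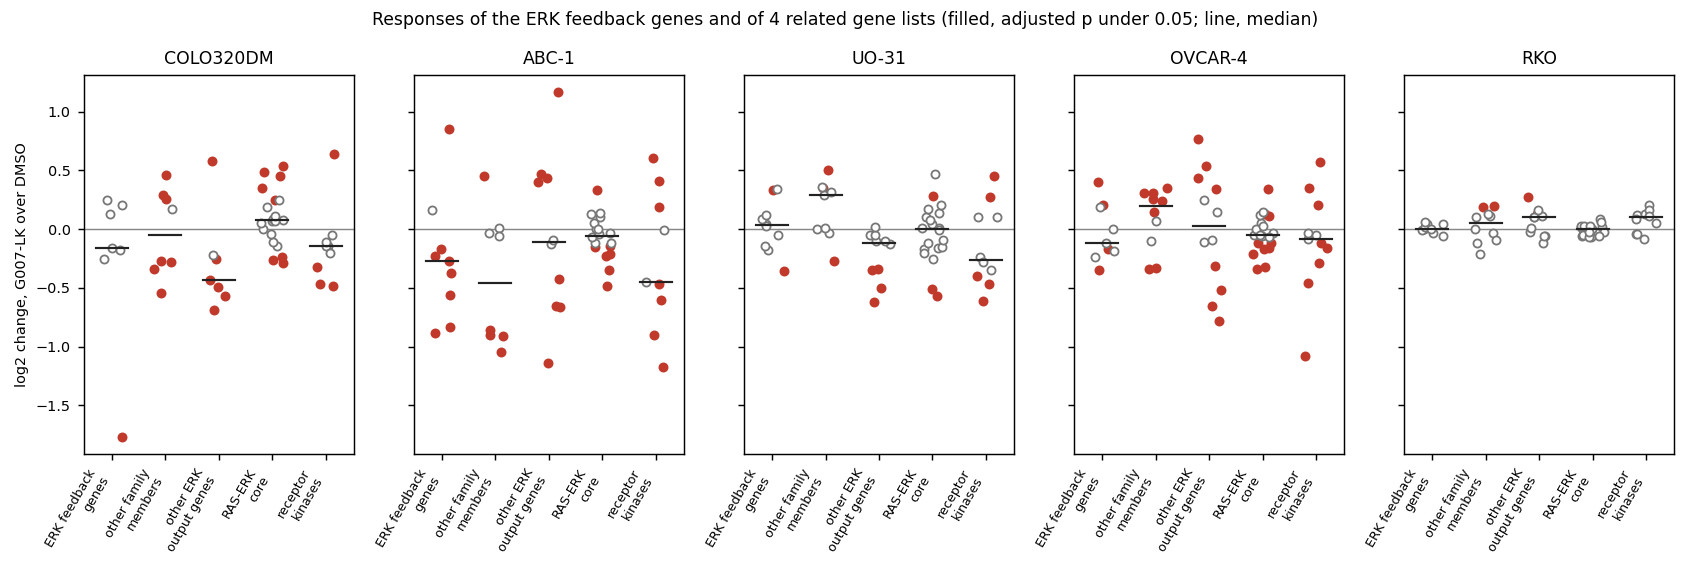
Log2 change (G007-LK over DMSO) of every tested gene of the ERK feedback set and of 4 related lists in each line, with filled points for a limma adjusted p under 0.05 and a line at the list's median. RKO points stay close to 0, and in ABC-1 each list but the RAS-ERK core spreads widely, with medians of -0.27 for the feedback genes, -0.46 for other family members, -0.11 for other ERK output genes, -0.05 for the core and -0.45 for receptor kinases.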

How the data were processed

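The authors captured poly(A) RNA, sequenced it on an Illumina HiSeq instrument, aligned reads to hg19 genes with SOAPaligner/SOAP2 (at most 2 mismatches, version not given in the sources used here) and deposited 1 RPKM value per gene and library. Their tables of log2 ratios and NOISeq probabilities were not used. Missing values were set to 0. Of 21610 entries, 8 had no symbol (at most 0.00134% of RPKM) and 371 symbols on several entries were joined. No columns lacked a sample, and no 2 libraries were identical.

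Values were fitted as log2(RPKM + 0.5), so changes of low genes are understated, with limma 3.58.1 (trend, robust, statmod 1.5.0, R 4.3.3), two-sided, Benjamini-Hochberg over all genes whose mean RPKM reached 1, threshold 0.05. Responses were fitted in each line (2 against 2), differences from RKO as interactions over 8 libraries, and levels over the 10 DMSO libraries. Each interaction used 1 residual spread per gene for the line and RKO together. Its SE can therefore lie below that of the line's own response. Libraries were rescaled by median ratios, within a line for responses and over 20 libraries for levels. Python 3.11.15 was used otherwise. P-values rest on the spread between 2 biological replicates per group. With so few libraries, limma draws the spread of each gene towards that of genes of like level. In simulated data, 80% to 99% of changes of 0.5 and 93% to 98% of changes of 1 were found in the responses, with 10 to 25 false calls among 10483 to 12368 genes. COLO320DM had 25 false calls beside 97 and 97 found changes, OVCAR-4 22 beside 92 and 98, and RKO 22 beside 99 and 95. UO-31 had 17 beside 80 and 97, and ABC-1 10 beside 94 and 93. The false share of calls thus exceeded the threshold of 0.05 in all but ABC-1, where it was close to it. The simulation changed 200 genes and drew independent noise with the spread of the fits. It held no shifts of whole libraries, so it does not show how such shifts affect the calls.

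All 10 genes were named. Of other lists, counts and up to 4 called genes with the largest changes were named, with some genes called in all 4 sensitive lines. Levels were likened by Pearson r. The genes and lists were chosen with earlier results of these data known. Replicates with the same number deviated with r from -0.26 to 0.05, and samples were fitted unpaired. The lowest values were -0.26 in ABC-1 and -0.25 in COLO320DM. Such correlations cannot show whether libraries shared a batch, which was not tested. Alternatives were no rescaling, quantile normalization, equal sums, pseudocounts of 0.1 and 1, no filter or a minimum of 5, 1 fit over 20 libraries, all 20 libraries for levels, a replicate block and leaving out each library.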

Additional observations from a re-analysis of the deposited data

Results flagged for a closer look

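In 13 cases the response of a gene in a sensitive line differed from its response in RKO by the interaction test of limma (adjusted p under 0.05). The genes tested numbered 7 in COLO320DM, 8 in ABC-1, 9 in UO-31 and 9 in OVCAR-4. Of all genes tested, 29.0%, 53.1%, 20.5% and 29.5% differed in these lines, in the same order. The calls that held under every alternative numbered 1, 5, 0 and 1. For the 13 cases, the line-minus-RKO values on the log2 scale were, in COLO320DM, ETV5 -1.79. In ABC-1 they were DUSP5 -0.91, PHLDA1 -0.86, SPRED1 -0.51, SPRED2 -0.36, ETV4 -0.21 and DUSP6 0.86. In UO-31 they were ETV4 -0.33, DUSP5 0.31 and SPRY4 0.33. In OVCAR-4 they were PHLDA1 -0.29, SPRY2 -0.27 and DUSP6 0.41. Of these, DUSP5 lay below RKO in ABC-1 and above it in UO-31. The direct difference between those 2 lines was not tested. Groups of 2 libraries were too small for the check of a single deviating sample, which needs 4.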

How the results depend on the processing

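Of the calls of single genes, 5 in ABC-1 (DUSP5, DUSP6, SPRED1, SPRED2 and PHLDA1), ETV5 in COLO320DM and SPRY2 in OVCAR-4 passed under every alternative run, and none of the calls in UO-31 did. No response or difference from RKO changed sign once called. Over all genes, the number called without rescaling was 2178 in COLO320DM, 1591 in UO-31 and 432 in RKO, and for the difference from RKO 1075 in COLO320DM and 518 in UO-31. In RKO it was 69 without a filter, 462 at a minimum RPKM of 5 and 43 in 1 fit over 20 libraries, which gave 5873 in UO-31. Leaving out 1 library gave 2502 (without the first G007-LK library) to 5221 (without the second DMSO library) in COLO320DM, 1494 (without the second DMSO library) to 6669 (without the first G007-LK library) in UO-31 and 63 (without the first DMSO library) to 125 (without the first G007-LK library) in RKO. For the difference from RKO it gave 1580 (without the first RKO DMSO library) to 4178 (without the second COLO320DM DMSO library) in COLO320DM and 886 (without the first RKO DMSO library) to 4721 (without the first UO-31 G007-LK library) in UO-31. The causes were not tested.

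Levels between lines turned on the deposited scale for DUSP4 (RKO minus OVCAR-4, -0.16), SPRED2 (UO-31 minus OVCAR-4, -0.64) and PHLDA1 (COLO320DM minus OVCAR-4, -0.49), where the OVCAR-4 values are not divided by their larger factor. ETV5 in COLO320DM minus UO-31 became -0.73 with all 20 libraries, which include the treated COLO320DM libraries.

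With the replicate number as a block, the calls numbered 3661 in COLO320DM, 6392 in ABC-1, 4012 in UO-31, 6154 in OVCAR-4 and 208 in RKO, and 1542 for COLO320DM minus RKO, the 1 count it moved by over 1.5 times. It ended the calls of SPRY2 in ABC-1 (adjusted p = 0.0936), DUSP6 in OVCAR-4 (0.051), ETV4 in ABC-1 minus RKO (0.0648) and DUSP5 in UO-31 minus RKO (0.0515). Crossing the numbers, a choice made after seeing the data, gave 5930 calls in COLO320DM and 7724 in ABC-1. Read depth is unknown, so counting error could not be given.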
